A study of Mus musculus with 229 samples.

Results

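Wide open intervals are stretches of at least 1500 bp that were called as 1 continuous region of open chromatin in cells sorted from PDGFRa-GFP mouse cortex. They were chosen by width alone, as the unique intervals on chromosomes 1 to 19 of the pooled ATAC-seq peak list whose end lies 1500 bp or more beyond the start. There were 1902 of them among 74909 intervals on these chromosomes (2.54%), and the whole list holds 76321 intervals. The remaining 73007 are called narrower below. Width is a reading of the same assay as the number and height of summits, so those values describe the chosen intervals and were not tested.

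The series holds 229 samples of cells from mouse cerebral cortex and from mouse tumours labelled GBM. ATAC-seq, in which a transposase cuts accessible DNA and tags it for sequencing, was done on nuclei of 50000 sorted PDGFRa-GFP cells per library. The 2 libraries are titled E14.5 and P5, and their peaks come in 1 pooled list, so the stages cannot be told apart in it. Gene levels came from 1 PDGFRa-GFP Drop-seq library of P1-3 (3184 cells, 8166699 UMIs), from PDGFRa-GFP cells captured singly on the C1 chip at P6 (53 cells) and at P3 (60 cells), and from 1 hGFAP-GFP Drop-seq library of P5-6 (815 cells, 4196024 UMIs). In the PDGFRa-GFP strain GFP reports use of Pdgfra, the receptor gene of oligodendrocyte precursor cells (OPCs), and in the hGFAP-GFP strain it follows a human GFAP promoter. No group received a treatment, and cells without GFP or with the dead-cell dye 7-AAD were left out by the sort. The titles were followed where labels differ. For the PDGFRa-GFP C1 cells, 1 field names the other strain. For the ATAC libraries, other fields give stages and a genotype that do not match the titles. For the hGFAP-GFP Drop-seq library, the label names more cells than the 815 with values. No label names the animals. With 1 library or 1 set of cells per group, levels have no replicate error, and no difference between groups was tested.

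Pdgfra had a level of 141 CPM (UMIs of the gene scaled to a fixed library total) in the PDGFRa-GFP Drop-seq library, with a UMI in 20.9% of cells. It reached 10 TPM, a unit per transcript length, in 27 of 53 C1 cells at P6 and in 11 of 60 at P3. Olig1, a transcription factor of the oligodendrocyte lineage, had a UMI in 44.1% of Drop-seq cells, and Dlx1, a transcription factor of interneurons, in 48.9%. Transthyretin (Ttr), a secreted product of choroid plexus and liver, had 10016 CPM and a UMI in 62.8% of these cells, while the haemoglobin gene Hba-a1 had one in 1.85%. Neither Ttr nor Hba-a1 had an interval of any width within 1000 bp of its start. Which cells these UMIs came from, or whether they were free RNA, was not tested, and levels below are given first as CPM of summed UMIs.

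In ATAC-seq, reads pile up where DNA is free of stable nucleosomes, mainly at gene starts and at enhancers. The peak caller joins neighbouring enriched positions into 1 interval and marks each local maximum in it as a summit. Many mammalian gene starts lie in CpG islands, stretches rich in the dinucleotide CpG that tend to stay free of nucleosomes, and islands at genes for developmental regulators are often long. OPCs arise from progenitors that also use such regulators, among them Sox2 and the Dlx genes.

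Dlx1, Dlx2, Sox2, Pou3f2 and Jun are shown because each is a short gene for a transcription factor whose start lay inside a wide interval, and Pdgfra because the gene that marks these cells had narrower intervals only. Each line gives the 250 bases before the first listed start, 5′ to 3′ in the direction of transcription, from RefSeq's start windows on GRCm38.p6, with every CpG in capitals. The windows are chr2:71529195-71529444 on the plus strand for Dlx1, chr2:71546755-71547004 on the minus strand for Dlx2, chr3:34649745-34649994 on the plus strand for Sox2, chr4:22488367-22488616 on the minus strand for Pou3f2, chr4:95052223-95052472 on the minus strand for Jun and chr5:75152001-75152250 on the plus strand for Pdgfra.
Dlx1: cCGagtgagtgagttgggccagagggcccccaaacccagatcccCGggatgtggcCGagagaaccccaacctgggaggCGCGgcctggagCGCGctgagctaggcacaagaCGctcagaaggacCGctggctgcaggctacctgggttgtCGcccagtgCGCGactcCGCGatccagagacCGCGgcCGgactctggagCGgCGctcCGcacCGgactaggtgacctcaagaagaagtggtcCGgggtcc
Dlx2: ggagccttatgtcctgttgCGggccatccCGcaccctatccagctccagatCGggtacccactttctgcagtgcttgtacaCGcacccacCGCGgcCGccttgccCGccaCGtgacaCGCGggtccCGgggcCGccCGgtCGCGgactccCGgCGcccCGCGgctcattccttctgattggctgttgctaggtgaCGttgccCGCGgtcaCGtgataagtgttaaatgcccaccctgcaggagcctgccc
Sox2: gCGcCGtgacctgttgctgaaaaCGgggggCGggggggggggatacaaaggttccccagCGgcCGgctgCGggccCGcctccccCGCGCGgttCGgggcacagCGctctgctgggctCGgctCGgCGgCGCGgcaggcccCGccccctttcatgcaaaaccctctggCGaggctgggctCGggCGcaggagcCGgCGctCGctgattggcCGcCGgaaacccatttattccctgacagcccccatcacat
Pou3f2: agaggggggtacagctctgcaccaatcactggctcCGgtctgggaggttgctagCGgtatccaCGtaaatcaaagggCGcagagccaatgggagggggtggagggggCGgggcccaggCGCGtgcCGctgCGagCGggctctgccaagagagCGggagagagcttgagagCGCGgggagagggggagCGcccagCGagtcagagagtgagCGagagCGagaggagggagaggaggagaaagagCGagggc
Jun: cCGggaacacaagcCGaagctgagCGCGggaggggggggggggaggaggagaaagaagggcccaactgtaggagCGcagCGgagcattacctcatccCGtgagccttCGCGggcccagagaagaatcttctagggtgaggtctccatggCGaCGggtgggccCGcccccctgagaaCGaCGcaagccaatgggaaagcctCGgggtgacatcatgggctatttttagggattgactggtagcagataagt
Pdgfra: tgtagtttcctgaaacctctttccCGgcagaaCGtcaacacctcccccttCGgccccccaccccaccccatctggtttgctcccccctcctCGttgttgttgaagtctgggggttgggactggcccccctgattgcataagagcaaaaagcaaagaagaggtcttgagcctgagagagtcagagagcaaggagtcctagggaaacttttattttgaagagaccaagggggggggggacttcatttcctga
The windows before Sox2 and Dlx2 hold 27 and 24 CpGs, those before Dlx1, Pou3f2 and Jun 22, 18 and 15, and that before Pdgfra 4. The windows of Dlx1 and Pdgfra lie inside the annotated genes, whose spans begin upstream at chr2:71528113 and chr5:75151322. The 4 CpGs are thus those of an internal start of Pdgfra. All 250 bases of each of the first 5 windows lay inside 1 wide interval, of 1624 bp at Sox2, 1750 bp at Dlx2, 3043 bp at Dlx1, 3439 bp at Pou3f2 and 3922 bp at Jun. The Pdgfra window lay inside an interval of 403 bp, and the widest interval within 1000 bp of a Pdgfra start had 1153 bp. This wider one (chr5:75150514-75151666) lay over the beginning of the gene's span.

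A wide interval was typically a row of summits. It had a median of 4 summits (quartiles 3 and 5, highest 25), where the median narrower interval had 1. At least 3 summits were marked in 1698 wide intervals (89.3%) and in 2331 narrower ones (3.19%). When only summits with a −log10 q of at least 10 were counted, 26.1% of the 1604 wide intervals that kept any had 3 or more. Only 18 wide intervals had a single summit. Neighbouring summits inside wide intervals lay a median of 345 bp apart (quartiles 261 and 459.5), against 292 bp in narrower intervals with more than 1 summit. Wide intervals made up 13.1% of the covered bases and held 8.83% of all summits.

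The median width was 1811 bp, with quartiles of 1613 and 2102 bp, so most of the intervals lay close above the bound. Of the 1902, 1284 were under 2000 bp, 74 had 3000 bp or more and 12 had 5000 bp or more. The highest summit of a wide interval stood at a median of 11.6 fold over background (quartiles 9.10 and 15.2), by the authors' fold values, and that of a narrower one at 3.54. The lowest summit of each wide interval had a median fold of 5.06, well below the top one. Folds in the list are whole multiples of 0.506, which is 1 step, and the median heights equal 23 and 7 steps.

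**Figure D1:**
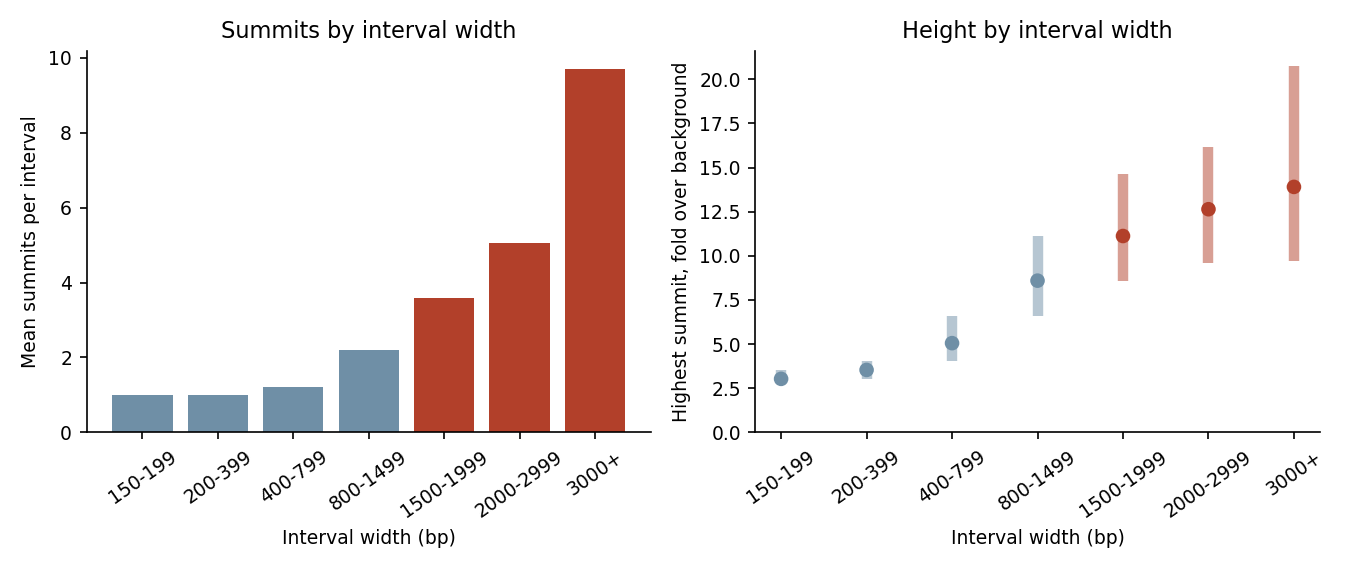
Mean number of summits (left, bars) and fold of the highest summit over background (right, points for medians and thick lines for quartiles) in bins of interval width on chromosomes 1 to 19, with widths of 1500 bp and more in red. Mean summits go from 1 below 200 bp to 9.70 at 3000 bp or more, and the median fold from 3.03 to 13.9.

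Nothing marked the bound itself. The 222 intervals within 50 bp below it had 2.99 summits on average and a median top fold of 10.1, and the 234 within the first 50 bp from it had 3.24 summits and 11.1 fold. The first 3 intervals of exactly 1500 bp lay in Zswim6, in the host transcript of Mir124a-1 and at the start of Tomm70a, a mitochondrial import receptor, with 2, 3 and 5 summits and top folds of 7.58, 7.08 and 16.2. Just outside were intervals of 1499 bp at Miip (2 summits, 18.2 fold), of 1498 bp at Palm (3 summits, 5.56 fold) and of 1498 bp 41365 bp from Il9r (3 summits, 10.6 fold).

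Few of the widest intervals lay at well-known genes. The longest was chr6:47674440-47684525, with 10086 bp, 25 summits and a top fold of 25.3, and it was 1 of 12 wide intervals in a pair of clusters between chr6:47652626 and chr6:47768844. The genes annotated there are predicted (Gm) genes and Rn4.5s, a gene for a small RNA annotated as rRNA. Next came 14 wide intervals in chr11:3126893-3196974, over or near Sfi1, a gene of the centrosome, with widths of up to 7770 bp and 129 summits in all. Of the 12 widest intervals, 9 lay in these places. The other 3 were chr13:119596330-119603556 in Tmem267, with 7227 bp, 17 summits and 43.5 fold, chr17:39842928-39848888 over the ribosomal RNA pseudogene Rn18s-rs5, at 88.5 fold with no summit under 38.4, and chr10:37136598-37142178 at Marcks.

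The highest summits also lay away from protein-coding starts. The interval chr1:24611462-24616254 over the pseudogenes Gm10222 and Gm10925 reached 221 fold, and its lowest summit still had 185 fold. An interval of 1688 bp inside Myo3a reached 118 fold. In chr9:2999929-3034049, where no gene is annotated, 8 wide intervals had top folds of 35.4 to 108. Whether these highest and the widest intervals reflect open chromatin or reads from repeated sequence was not tested. The intervals were not checked against a list of regions to exclude. In all, 92 wide intervals (4.84%) fell into 21 clusters of at least 3 with gaps of at most 20000 bp, and 12 of the clusters held the start of a named protein-coding gene. Among these were Dlx1 with Dlx2, Dlx5 with Dlx6, Kdm6b, Cic, Pcdh17 and a histone gene cluster with starts of 9 genes.

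Most wide intervals lay at gene starts. An interval was counted there if it came within 1000 bp of a start of 1 of 20661 protein-coding genes of GRCm38.p6. This held for 1626 of 1902 wide intervals (85.5%, 95% Clopper-Pearson interval 83.8 to 87.0, which covers counting only) and for 18677 narrower ones (25.6%). The start lay inside the interval in 82.0% of wide and 12.5% of narrower intervals. Since a wider interval covers more ground, the distance was also taken from the top summit alone, and 79.5% of wide against 24.1% of narrower intervals then lay within 1000 bp. Of the remaining wide intervals, 147 (7.73%) overlapped a protein-coding gene away from its starts and 129 (6.78%) lay outside such genes, against 40.3% and 34.1% of narrower intervals.

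The difference in place went with height. Among the 1837 narrower intervals whose top summit was at least as high as the wide median, 85.4% lay within 1000 bp of a start, 0.132 percentage points below the wide intervals. By the top summit the order turned, with 84.4% of these narrower intervals (82.6 to 86.0) and 79.5% of the wide ones (77.7 to 81.3). In bands of height, again by the top summit, 84.6% of wide and 85.4% of narrower intervals lay at a start in the band of 11 to 15 fold, and 90.03% and 88.7% in the band of 15 to 20 fold. The counting intervals overlapped in both bands. In lower bands wide intervals were at starts more often, with 75.8% against 69.5% at 8 to 11 fold and 67.6% against 40.4% at 5 to 8 fold. Above 20 fold the shares were 74.0% and 54.1%, and 15.8% of wide and 35.3% of narrower intervals lay outside protein-coding genes. By the distance of the interval itself, the wide share was the higher one in each band. It was 88.8% against 86.6% at 11 to 15 fold and 92.9% against 89.1% at 15 to 20 fold. Width itself went with height, as 41.4% of all intervals of 15 to 20 fold were wide and 2.72% of those of 5 to 8 fold.

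**Figure D2:**
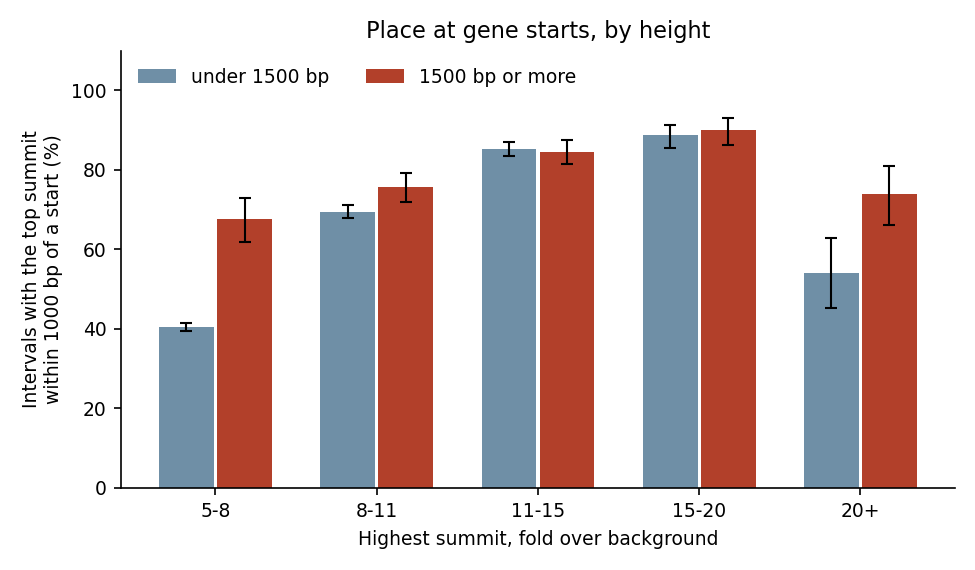
Share of intervals whose highest summit lies within 1000 bp of a protein-coding start (bars, with 95% Clopper-Pearson intervals) in bands of the highest fold, for intervals of 1500 bp or more (red) and narrower ones (blue). The bars are level between 11 and 20 fold, and the red bar is higher at 5 to 8 fold (67.6% against 40.4%) and above 20 fold (74.0% against 54.1%).

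At a start, a wide interval reached farther into the gene than before it. For 951 wide intervals over exactly 1 listed start, the median reach was 812 bp before and 1023 bp after the start, and 62.04% reached farther after it. The 6507 narrower intervals of this kind reached 305 and 392 bp, with 59.3% reaching farther after. The top summit lay a median of 74 bp before the start in wide and 24 bp before it in narrower intervals. Several genes were covered at once by some wide intervals, which follows in part from the width that chose them. Of 1316 that held a listed start, 196 (14.9%) held starts of 2 or more genes, against 7.12% of narrower ones, and in 187 of the 196 the genes lay on both strands.

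The DNA at these starts was rich in CpG. Over 1919 listed starts with a wide interval, the window from 250 bases before to 50 after the start had a median GC content of 66.3% and a median of 27 CpGs. The 10845 starts with narrower intervals had 61.3% and 20 CpGs, and the 7320 starts with none 47.3% and 3. The ratio of observed to expected CpG, where 1 means no depletion, was at least 0.6 in 86.7% of windows at wide intervals, in 71.1% at narrower ones and in 48.9% of all 20084 windows. Counted by genes, 1408 of 8612 with such a start (16.3%) had a wide interval, and 148 of 7844 without one (1.89%).

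Short motifs were searched on both strands of the same windows. GGGCGG, the core of GC boxes bound by Sp factors, was in 77.5% of windows at wide intervals, 64.2% at narrower ones and 47.03% of all. TATAAA, the box bound by TBP, was in 4.85% of windows at wide intervals, 6.72% at narrower ones and 12.7% of all. CCAAT, the letters bound by NF-Y, was in 41.01%, 37.1% and 38.1%. The ETS site CCGGAAG was in 13.5%, 17.8% and 11.9%, and the E-box CAGCTG in 13.1%, 15.1% and 15.6%. The Sox motif ACAAAG was in 11.2% of windows at wide intervals, 13.04% at narrower ones and 16.6% of all. Another Sox motif, ACAATG, was in 6.31%, 6.72% and 10.4%, so windows at wide and narrower intervals were within counting error. TTGGCA, the NFI core, was in 9.17%, 11.1% and 13.1%. The classes differ in base composition as given above, and a match shows the letters only.

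Counting intervals of any width, wide intervals were about as crowded as others. A median of 6 other intervals lay within 50000 bp of a wide interval, as of a narrower one. Another wide interval lay that close to 20.2% of wide (18.5 to 22.1) and 17.7% of narrower intervals (17.4 to 17.9). The wide share was 16.2% without clusters, which by definition are wide intervals close together. The share of intervals that were wide ran from 1.85% on chromosome 4 to 3.33% on chromosome 17.

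Of the 276 wide intervals away from protein-coding starts, some lay at non-coding genes. At the start of a non-coding gene were 35 of them (12.7%), against 3.52% of narrower intervals away from protein-coding starts. The 147 over genes lay in 131 protein-coding genes with a median length of 92327 bp. Such an interval can still cover an end of an annotated gene whose listed starts are internal. Of the 131 genes, 28 (21.4%) had another wide interval at a start, where the share of all protein-coding genes is 9.16%. The widest such intervals outside clusters were in Tmem267, in Adgrl2, an adhesion receptor (3571 bp), in Mxi1, a repressor of the Myc network (3233 bp), and in Cpeb2, a regulator of translation (3012 bp). Others lay 2135 bp from the nearest start of Bcl11a (2857 bp), a zinc finger repressor of neurons and blood cells, and 1178 bp from that of Notch1 (2649 bp), whose own starts had narrower intervals only. Outside protein-coding genes, an interval of 3015 bp lay 2464 bp from Nr2f1, a nuclear receptor that patterns the cortex. These intervals were chosen after their values were seen. The nearest genes of the 276 intervals had a median of 25.2 CPM in the PDGFRa-GFP Drop-seq library (199 genes in the table), against 10.9 CPM for those of narrower intervals away from starts.

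All 3 mouse genes for miR-9, an RNA of neural progenitors, had a wide interval within 20000 bp, but only Mir9-3 overlapped its nearest wide interval. They were picked out when non-coding genes under wide intervals were listed. The mature sequence from RefSeq is given 5′ to 3′, with the seed, bases 2 to 8, in capitals.
mmu-miR-9-5p: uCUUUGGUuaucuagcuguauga
Mir9-3 lay inside chr7:79504447-79506584, with 2138 bp, 4 summits and 11.1 fold. Mir9-1 began 44 bp beyond chr3:88213846-88215554 (1709 bp, 1 summit, 6.57 fold), with 4 wide intervals within 20000 bp, and Mir9-2 lay 1862 bp from chr13:83740747-83742524 (1778 bp, 2 summits, 8.59 fold), with 3. A narrower interval lay closer to Mir9-2, at 172 bp (955 bp, 9.60 fold). The nearest protein-coding starts were 27320 bp or more from each of these intervals. Counting any width, 32 intervals lay within 20000 bp of Mir9-1, 26 of Mir9-2 and 32 of Mir9-3. Of all 1136 miRNA genes, 36 (3.17%) lay under a wide interval, as Mir9-3 did. The share of miRNA genes with a wide interval within 20000 bp was not counted. Mir124a-1, of the neuronal miR-124 family, lay inside an interval of 2380 bp with 5 summits. Mir124a-2 and Mir124a-3 had no wide interval within 20000 bp. Mir219a-1 lay inside an interval of 1827 bp that also held a start of Ring1, and Mir219a-2 had no wide interval within 20000 bp. The expression tables give no mature miRNA levels.

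Of the genes with a wide interval at a start, the widest outside the Gm genes and Sfi1 was at Marcks, an actin-binding substrate of protein kinase C, with 5581 bp, 16 summits and 16.2 fold. Midn followed with 4996 bp and 13 summits, then Mex3b, an RNA-binding protein, with 4539 bp and 9 summits, and Ubtf, a factor of ribosomal RNA transcription, with 4538 bp and 12 summits. Sox12, Ing1, Foxo3, Jun and Basp1 had widths of 3876 to 4277 bp. The genes after Marcks were picked out after their values were seen. By the number of wide intervals over the gene or within 5000 bp, Sfi1 led with 14, and Gse1, Kdm6b, Gm40363 and Gm40367 had 4 each. Kdm6b encodes a demethylase of histone H3, and Cdk4 and Cic, with 3 each, a cell cycle kinase and a repressor of receptor kinase targets.

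Genes with wide intervals at their starts had higher levels than other genes. Each of the 20661 genes was put in a class by the widest interval within 1000 bp of any start, which gave 1893 genes with a wide interval, 11389 with narrower ones only and 7379 with none. In the PDGFRa-GFP Drop-seq library, where UMIs count transcripts regardless of length, the median level was 35.0 CPM in the first class (quartiles 14.3 and 93.8, 1813 genes in the table), 14.6 CPM in the second (3.67 and 41.5) and 0.367 CPM in the third. The median over all genes in the table was 9.31 CPM. At least 100 CPM was reached by 23.7% of genes at wide intervals and by 10.5% of those at narrower ones, and a level under 1 CPM was found in 2.04% and 13.4%. Read from the other side, 92 of 248 genes of 500 CPM or more (37.1%) had a wide interval, and 37 of 4412 genes under 1 CPM (0.839%).

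The C1 cells gave the same order. At P6 the median of mean TPM, which is per transcript length, was 28.1 for genes at wide intervals and 10.8 for those at narrower ones, and at P3 24.9 and 9.34. Genes without an interval had a median of 0 at both stages. A mean of 1 TPM or more at either stage was found for 94.4% of genes at wide intervals, 78.7% of those at narrower ones and 57.3% of all. In the hGFAP-GFP Drop-seq library, whose cells were not the source of the intervals, the medians were 33.6 and 14.1 CPM, close to those of the PDGFRa-GFP library.

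**Figure D3:**
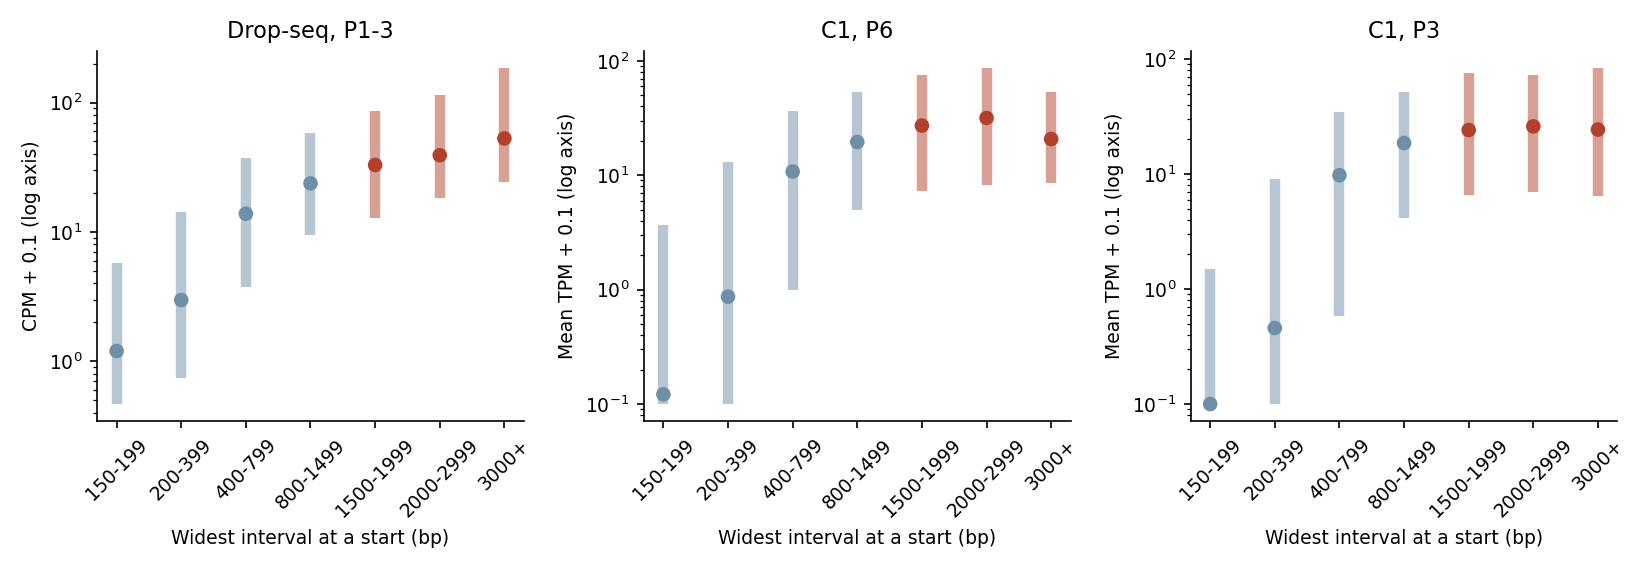
Level of protein-coding genes (points for medians, thick lines for quartiles, log axes after adding 0.1) by the width of the widest interval within 1000 bp of a start, in the PDGFRa-GFP Drop-seq library and in C1 cells at P6 and P3, with wide intervals in red. The Drop-seq median goes from 1.10 CPM below 200 bp to 52.7 CPM at 3000 bp or more, while the C1 medians at 3000 bp or more (20.6 and 24.3 TPM, 45 genes) are not above those between 2000 and 3000 bp (31.6 and 25.9 TPM).

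Part of the difference in level went with height as well. All genes at wide intervals, whatever their height, were set against narrower genes whose top fold reached the wide median. The log2 ratio of the class medians was then 0.23, where it was 1.27 against all narrower genes. Height was matched only within bands, where the log2 ratio was 0.45 at 11 to 15 fold. Within a band of 11 to 15 fold the medians were 40.6 CPM (598 genes) and 29.6 CPM (1465 genes), and within 15 to 20 fold 49.1 and 30.1 CPM. At 8 to 11 fold they were 27.6 and 22.8 CPM, at 5 to 8 fold 23.7 and 15.2 CPM, and above 20 fold 39.4 and 27.98 CPM. The median of genes at wide intervals was thus the higher one in each of these 5 bands, in the Drop-seq library and in both C1 sets. Quartile ranges overlapped widely in every band. Among genes with a CpG ratio of at least 0.6 the Drop-seq medians were 37.2 and 19.3 CPM, and among genes with a lower ratio 19.5 and 5.08 CPM.

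**Figure D4:**
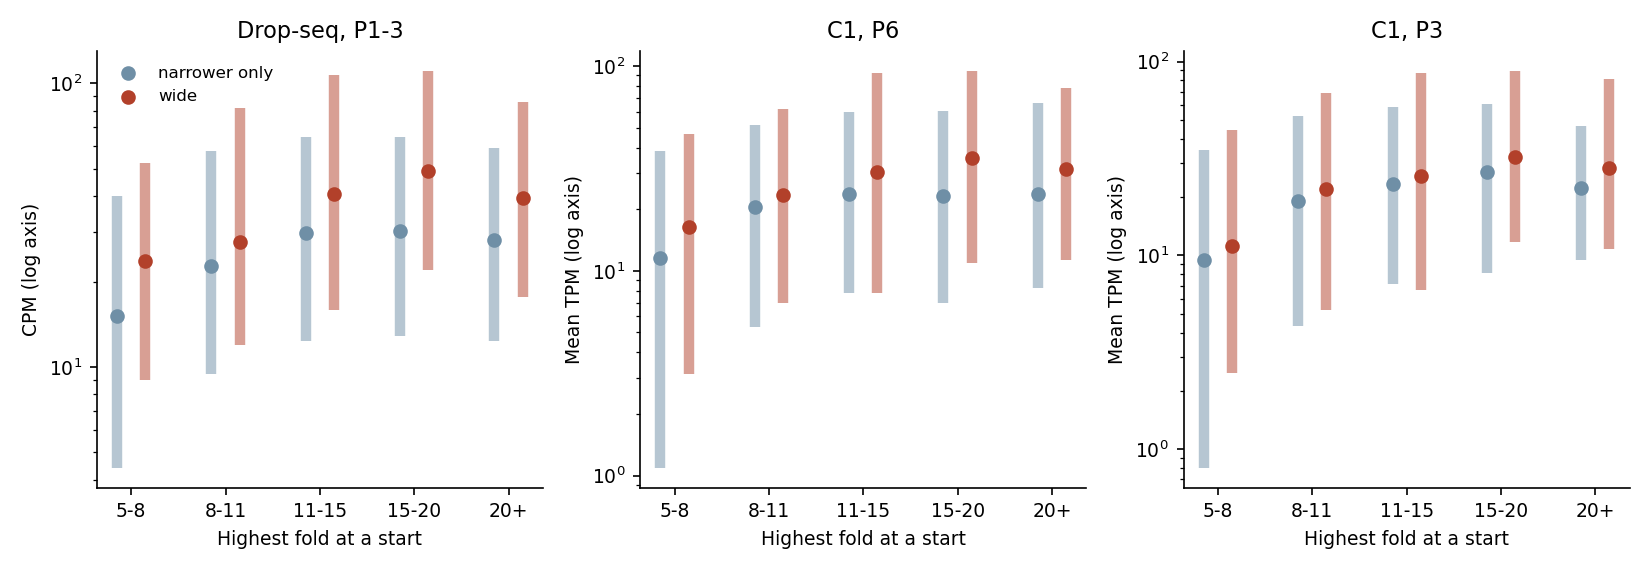
Level of genes with a wide interval at a start (red) and with narrower ones only (blue) in bands of the highest fold at the gene's starts (points for medians, thick lines for quartiles, log axes). In each band and each of the 3 data sets the red median is above the blue one, by less than the quartile range.

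Among genes with a wide interval, those with the highest levels exceeded 2000 CPM. Actb (actin) had 5988 CPM at an interval of 2652 bp with 7 summits, Ptma (prothymosin) 4932 CPM at 3025 bp and Tuba1a (tubulin) 4361 CPM at 1555 bp. Actb was above 10 TPM in all 53 C1 cells at P6 and all 60 at P3, with a median of 6791 TPM (highest 16377) at P6 and of 14102 TPM (highest 28924) at P3. Marcks, with the widest interval at a start outside the Gm genes and Sfi1, had 1571 CPM and a median of 1329 TPM at P6 and 939 TPM at P3, again above 10 TPM in every cell. High level did not require a wide interval. Fabp7, a lipid-binding protein of radial glia, had 2375 CPM at an interval of 657 bp, and ribosomal protein genes with 1412 CPM at the median had wide intervals in 2 of 20 cases.

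A few genes had a wide interval and almost no UMIs. Among the 37 under 1 CPM, those with the widest intervals were Lpxn (2465 bp, 0.612 CPM), Ccdc85c (2418 bp, 0.245 CPM), Tssk6 (2411 bp, 0.367 CPM), Lnx2 (2381 bp, 0.857 CPM) and Pbld2 (2195 bp, 0.980 CPM). Not all were low in C1 cells, where Pbld2 had a mean of 49.3 TPM at P6 with 10 TPM in 46 of 53 cells, and Adnp, a chromatin remodelling factor at 0.735 CPM, a mean of 45.5 TPM. Ccdc85c, Chsy3, Mageb3, Trim17 and Tssk6 were listed at 0 TPM in every C1 cell. A listed 0 is not read as absence, since the depth of these cells is unknown.

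By gene lists, 77 of 359 listed genes (21.4%) had a wide interval at a start, where the share of all protein-coding genes is 9.16%. The lists overlap in members, and genes of 1 cluster can share an interval, as H2ac6 and H2bc4 did. Histone cluster genes (14 of 20), which encode the proteins of chromatin, and housekeeping genes (9 of 14) had the largest shares. Immediate early genes, which answer stimuli within minutes to hours, followed with 8 of 17. With a bound of 2000 bp instead of 1500 bp the shares were 9 of 20, 6 of 14 and 6 of 17, against 2.93% of all genes.

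**Figure D5:**
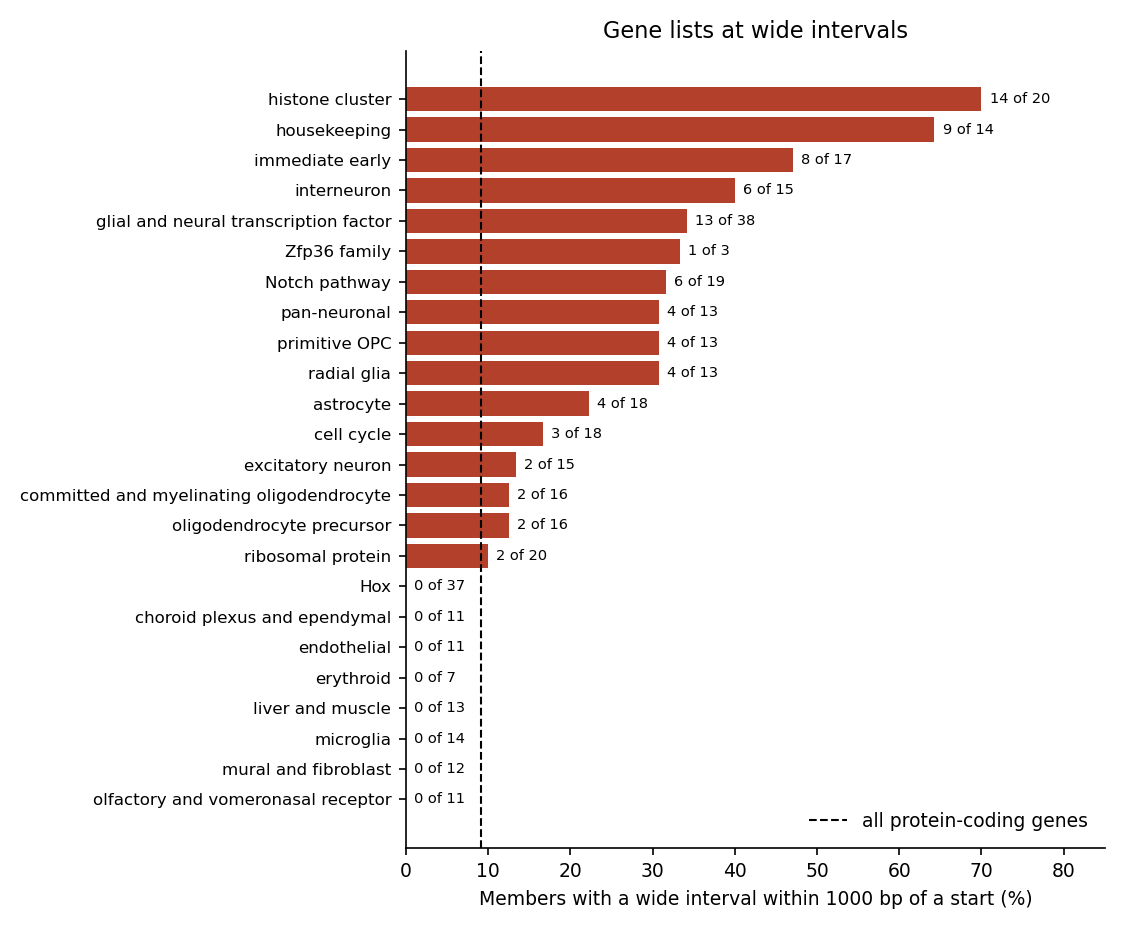
Share of the members of 24 gene lists that had a wide interval within 1000 bp of a start (bars, with counts), and the share of all protein-coding genes (dashed line, 9.16%). Histone cluster, housekeeping, immediate early and interneuron genes lie farthest to the right, and 8 lists have no member with a wide interval.

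Of the transcription factors of neural and glial cells, 13 of 38 (34.2%) had a wide interval, against 9.16% of all genes. The list had a median of 90.3 CPM, and 19.8% of all genes of 50 to 100 CPM had a wide interval. Nfib, a gliogenic factor, had 3677 bp and 7 summits and Pou3f2, a factor of neural progenitors, 3439 bp and 8 summits at 19.2 fold. Nfib had 994 CPM and Sox4 1118 CPM in the Drop-seq library, while Sox2 had 218 CPM. In C1 cells Sox2 was at 10 TPM in 19 of 53 cells at P6 (median 2.52, highest 605 TPM) and in 25 of 60 at P3 (median 5.81, highest 351 TPM). Hox genes, which pattern the body axis behind the forebrain and had a median of 0.122 CPM, had a wide interval in 0 of 37 cases. Of all genes under 1 CPM, 0.839% had one.

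Of the immediate early genes, Jun had 3922 bp with 11 summits at 21.7 fold, Jund 3098 bp, Ier2 2858 bp, Egr1 2643 bp with 6 summits at 21.7 fold and Fos 2097 bp. Egr1 had 612 CPM and reached 10 TPM in 41 of 53 C1 cells at P6 (median 1217 TPM) and in 32 of 60 at P3 (median 16.1 TPM). Fos had 235 CPM and reached 10 TPM in 35 and 23 cells.

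Interneuron genes had wide intervals in 6 of 15 cases (40%), among them Dlx1, Dlx2, Dlx5, Dlx6 and Gad2. The share is 9.16% of all genes and 19.8% of those of 50 to 100 CPM, where the list median (92.1 CPM) lay. Dlx1 had 3043 bp with 8 summits at 14.7 fold and Gad2, which makes the transmitter GABA, 2247 bp with 4 summits at 8.09 fold. These genes were also abundant, with 606 CPM for Dlx1, 282 for Dlx2 and 271 for Gad2. Dlx1 reached 10 TPM in 7 of 53 cells at P6 (median 0) and in 35 of 60 at P3 (median 44.9 TPM, highest 1086). The summed level of the 15 genes was 2074 CPM in the PDGFRa-GFP and 1071 CPM in the hGFAP-GFP library. Which cells of the sort the intervals came from was not tested. Pan-neuronal genes had 4 of 13 (Tubb3, Map2, Elavl3 and Elavl4) and excitatory neuron genes 2 of 15 (Cux1 and Neurog2).

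With the bound of 1500 bp, lineage genes of the oligodendrocyte had a share of wide intervals near that of all genes. The OPC list had a median of 86.9 CPM, and 19.8% of all genes of 50 to 100 CPM had a wide interval. In the OPC list 2 of 16 (12.5%, against 9.16% of all genes) had a wide one, Vcan (2516 bp, 6 summits) and Ptprz1 (1545 bp, 3 summits), both of them proteins of the cell surface and matrix. Pdgfra itself had 1153 bp, Olig2 1334 bp, Olig1 1138 bp, Cspg4 323 bp and Sox10 150 bp. Olig1 had 791 CPM and Sox10 80.4 CPM, so narrow intervals were not limited to low levels. The Sox10 interval was at the floor of the list in width and height, with 1 summit of 2.53 fold and a −log10 q of 0.380. Genes of committed and myelinating oligodendrocytes had 2 of 16, Cnp (3366 bp) and Fyn (1888 bp, 23.8 fold), while Mbp had 470 bp. With a bound of 1000 bp, 7 of 16 OPC genes counted as wide, against 24.7% of all genes.

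Genes of primitive OPCs and the Notch pathway shared members. Of the primitive OPC genes 4 of 13 had a wide interval, among them the Notch ligand Dll1 (2262 bp), Hes6 (1833 bp) and Sox11 (2228 bp). In the Notch list, 6 of 19 had a wide interval. They were the ligands Dll1 and Jag1, the DNA-binding partner Rbpj, the coactivator Maml1, the target Hey1 and the Hes family member Hes6. Of the other Hes genes, Hes5 had 1339 bp and Hes1 1070 bp. Radial glial genes had 4 of 13 (Pax6, Prom1, Sox2 and Vim) and astrocyte genes 4 of 18 (Glul, Id4, Nfib and Sox9), while Gfap had 150 bp and Aqp4 none. Of the 3 Zfp36 genes, which destabilise mRNA, Zfp36l2 had 2543 bp, Zfp36l1 492 bp and Zfp36 544 bp. Cell cycle genes had 3 of 18, Ccnd2, Cdk1 and Cdk4. For these lists the share of all genes is 9.16%, and that of genes of 50 to 100 CPM is 19.8%. The astrocyte (22.2%) and cell cycle (16.7%) shares were near the latter.

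No member of the microglia (14), endothelial (11), mural and fibroblast (12), erythroid (7), choroid plexus and ependymal (11), olfactory and vomeronasal receptor (11) or liver and muscle (13) lists had a wide interval, at a bound of 1000, 1500 or 2000 bp. At these bounds the share of all protein-coding genes is 24.7%, 9.16% and 2.93%. Each list has 14 members or fewer, so a count of none says little for a single list, and no difference was tested. At 1500 bp the share is 0.839% for genes under 1 CPM and 7.05% for those of 1 to 10 CPM. Of these lists, only the choroid plexus (21.4 CPM) and erythroid (105 CPM) lists had medians above 10 CPM, where the share is higher. The summed level of the microglia list was 111 CPM in the PDGFRa-GFP library and that of the endothelial list 20.8 CPM. The choroid plexus list summed to 10303 CPM, nearly all of it Ttr.

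The median ratio between strains was much the same at wide intervals as over all genes. Between the Drop-seq libraries, which differ in strain and in age, their median log2 ratio of CPM + 1 was 0.10 (PDGFRa-GFP over hGFAP-GFP), against 0.08 for all 11068 genes with at least 20 UMIs in either library. Of 1735 genes at wide intervals, 43 (2.48%) were at least 2-fold higher in PDGFRa-GFP, where the share of all genes is 3.37%. Another 61 (3.52%) were at least 2-fold lower, where the share of all is 8.09%. Since the classes differ in level, the shares were also read in bands of mean level. At 50 to 500 CPM 1.61% of genes at wide and 2.07% of those at narrower intervals were higher, and 1.29% and 3.41% lower. At 10 to 50 CPM 2.92% and 2.30% were higher, and 4.82% and 6.18% lower. The order of the higher shares thus differed between the bands.

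Dlx genes were among those with the largest ratios toward PDGFRa-GFP. Dlx5 had 143 CPM in PDGFRa-GFP and 42.4 CPM in hGFAP-GFP (log2 ratio 1.73), and Dlx2 282 and 102 CPM (1.46). Mpped2, a phosphodiesterase-like protein, had 229 and 79.8 CPM (1.51), and Rem2, a small GTPase, 17.4 and 3.34 CPM (2.08). At the other end, the proneural factor Neurog2 had 2.08 and 13.6 CPM (-2.24), Fjx1 17.5 and 80.8 CPM (-2.14), Lrig1, an inhibitor of growth factor receptors, 4.78 and 22.2 CPM (-2.004), and Btbd17 22.3 and 85.1 CPM (-1.89). Each ratio compares 1 library with 1 library.

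Between the C1 sets of PDGFRa-GFP cells, the median log2 ratio of mean TPM + 1 at P6 over P3 was 0.03 for 1728 genes at wide intervals and 0.15 for all 11359 with a mean of at least 1 TPM at either stage. At least 2-fold higher at P6 were 397 of the 1728 (22.97%), where the share of all genes is 28.5%. At least 2-fold lower were 313 (18.1%), where the share of all is 20.8%. At a mean of 50 to 500 TPM the shares were 13.7% higher and 11.2% lower, against 14.8% and 13.5% for genes at narrower intervals.

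Several of the extreme ratios rested on few cells. Extl2, a glycosyltransferase, had a mean of 75.6 TPM at P6 and 1.21 TPM at P3 (log2 ratio 5.11), with 10 TPM in 11 of 53 and 1 of 60 cells. Stat3, a transcription factor of gliogenesis, had 166 and 6.04 TPM (4.57), with 10 TPM in 13 and 8 cells and a highest cell of 3443 TPM. Mcub, a subunit of the mitochondrial calcium channel, had 0.0638 and 30.3 TPM (-4.88), with 10 TPM in 0 and 4 cells and a highest cell of 1419 TPM at P3. Ap4m1, an adaptor subunit, had 0.777 and 41.2 TPM (-4.57), with 10 TPM in 1 and 4 cells. The genes above were picked by their ratio, so other named genes had smaller ones. Some of these were seen in more cells. Tubb3 (-2.51) had 10 TPM in 16 of 53 and 44 of 60 cells, Egr1 (2.30) in 41 and 32 and Ccnd2 (-1.61) in 35 and 52.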

How the data were processed

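The intervals, lists and comparisons were chosen with earlier results of these data known. MACS2 2.12, Bowtie2, HOMER and CASAVA are named for the ATAC-seq libraries in the submitters' processing notes, which list the builds mm10 and rn5 with no role, and the intervals were read as mm10. The deposited peak list gives, for each summit, the authors' fold enrichment, its −log10 q and a score. The list pools both libraries, so it has no replicates and its depth is not known here. Drop-seq values were deposited by the authors as a signal, UMIs scaled to 10000 per cell. All were whole multiples of 1 UMI (within 0.1), and the recovered UMI counts were summed to CPM. C1 values are TPM as deposited by the authors, with STAR and RSEM named in the processing notes, and their depth is unknown.

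Lines of the list with the same chromosome, start and end were joined into 1 interval with its summits. Starts came from RefSeq's start windows on GRCm38.p6. For 4205 of 20661 protein-coding genes without a listed start, both ends of the gene were used. For the others only listed starts were used, and these can lie inside the annotated gene. Of the genes, 19972 were found in the expression tables, 873 by a synonym. Ratios are log2 of value + 1, for genes with at least 20 UMIs in either library or a mean of at least 1 TPM at either stage. Groups have 1 library or 1 set of cells each, so no test was run, and a gene counts as higher or lower from 2-fold. Shares have exact 95% Clopper-Pearson intervals, which cover counting only.

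Genes were named by rule: the 12 widest intervals, the 6 with the most summits, the 3 on each side of the bound, the 8 genes with the most wide intervals, up to 8 list members per list, the 10 most abundant genes at wide intervals, the 10 with the widest intervals among those under 1 CPM, and the 8 ratios at each end of each contrast. Other names were chosen after their values were seen. Alternatives were a bound of 1000 or 2000 bp, other distances to a start, a −log10 q of at least 10 and other level filters. Further ones were tall narrower intervals, a band of like height and leaving out clusters. The scripts were tested on simulated data. Python 3.11.15, numpy 2.4.6, pandas 2.3.3, scipy 1.17.1 and matplotlib 3.10.9 were used. Chromosomes X, Y and M stayed outside the comparisons, and tumour and hGFAP-GFP C1 samples were not used here. Some list members are not reported here.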

Additional observations from a re-analysis of the deposited data

Results flagged for a closer look

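Chromosomes X and Y were outside the comparisons, and both held intervals of at least 1500 bp. On chromosome X there were 23 among 1318 intervals (1.75%), the widest with 5473 bp. On chromosome Y there were 12 among 93 (12.9%, 95% Clopper-Pearson interval 6.85 to 21.5), the widest with 5620 bp. The mitochondrial genome was 1 interval of 16299 bp with 50 summits and a top fold of 257.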

How the results depend on the processing

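The share of wide intervals with 3 or more summits (89.3%) was 61.97% with a bound of 1000 bp and 98.5% with 2000 bp. Counting only summits with a −log10 q of at least 10, it was 26.1% of the 1604 wide intervals that kept any. The gap to narrower intervals in the share at starts (59.9 percentage points) was 57.9 and 57.02 with these bounds, 69.4 for a start inside the interval, 48.3 within 5000 bp and 10.7 among intervals with a −log10 q of at least 10. It was 0.132 for all wide intervals against narrower ones at least as high as the wide median. By the top summit those narrower intervals had the higher share (84.4% against 79.5%). Alternatives chosen after seeing the data gave 62.3 without clusters, 52.3 with listed starts only and 55.5 from the top summit. The share outside genes (6.78%) was 9.56% with 1000 bp and 5.14% without clusters. The log2 ratio of the Drop-seq class medians (1.27) was 1.46 with 1000 bp, 0.97 for a start inside the interval and 1.38 within 5000 bp. It was 1.72 for the nearest gene and 0.76 for genes with at least 20 UMIs. By alternatives chosen after seeing the data it was 0.23 for all wide genes against tall narrower ones. At 11 to 15 fold, with height matched on both sides, it was 0.45. The C1 ratios at P6 (1.38) and P3 (1.41) were 1.68 and 1.77 with 1000 bp, 0.74 and 0.65 for genes with at least 1 TPM, and 0.79 and 0.72 from means of log2(TPM + 1). Median ratios between strains and stages stayed near 0, and their order against all genes was not stable. The strain median (0.10, all genes 0.08) was 0.13 against 0.15 at 100 UMIs and 0.08 in both with 2000 bp. The stage median (0.03, all genes 0.15) was 0.02 against 0 with no filter. Listed genes at wide intervals (77) were 124 with 1000 bp and 43 with 2000 bp.

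No paired analysis was possible because replicate numbers only name single cells of a C1 chip, the other groups have 1 library each and no test was made. The peak list has no depth, and its pooling leaves no spread between libraries. Genes without a listed start are placed less exactly, and counting intervals do not cover differences between animals.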
